A study of Homo sapiens with 4 samples.

Results

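The genes described are 10 members of the NF-κB system measured in RKO cells: the subunits NFKB1, NFKB2, RELA, RELB and REL, the inhibitors NFKBIA and NFKBIE, the feedback regulators TNFAIP3 and BIRC3, and the kinase IKBKB. They were chosen by gene symbol, and all 10 were found among the 15357 genes of the expression matrices. NF-κB transcription factors are dimers of Rel-family subunits that are held in the cytoplasm by IκB inhibitor proteins. Signals from receptors such as those for TNF activate the IκB kinase complex, which marks the inhibitors for degradation and frees the dimers to bind κB sites in DNA. Several of the genes switched on in this way encode the inhibitors and ubiquitin-modifying enzymes that shut the pathway off again, and the NF-κB system is best known in the intestine for inflammatory and survival signalling.

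RNA sequencing compared 2 samples of RKO cells labelled vector with 2 samples labelled shCHD7_2, to ask which transcripts respond to knockdown of CHD7, an ATP-dependent chromatin remodeller. RKO is a human colon cancer cell line, and all 4 samples carried a stably integrated lentiviral construct, either the control or a short hairpin RNA (shRNA) against CHD7. All samples were grown in the same medium with no inflammatory stimulus named, and the libraries were made from polyadenylated RNA. Only 1 shRNA was sequenced, so loss of CHD7 and any other effect of that shRNA cannot be told apart. Nothing in the sample labels says that the 2 replicates of a group came from separate cultures, so the p-values measure the spread between these samples, which may be technical.

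CHD7 was first examined in every sample. Its level in CPM, the estimated count brought to a common library size, was 85.4 and 91.0 in the vector samples and 55.5 and 50.1 in the shCHD7_2 samples. Both knockdown samples lay below both controls, and CHD7 fell by 0.74 on the log2 scale (SE 0.0884, 95% interval -0.92 to -0.56, adjusted p = 4.15e-06). The libraries held between 15734666 and 16068642 counts. EPCAM, KRT18 and CDX2 were expressed at mean FPKM values of 6.7, 58.0 and 5.1, whereas the epithelial cadherin CDH1 had 0 counts in 3 libraries and 1 in the fourth library, and the differentiated colon genes KRT20, LGALS4 and CDH17 had at most 1 count in any library. Among markers of other cell types, CD4, CD14, ITGAM, LYZ, COL1A1, LUM, PDGFRA, PECAM1 and VWF had at most 7 counts in any library, while CD68 had a mean FPKM of 559. CD8A had 9 and 7 counts in the vector samples and 18 and 20 counts in the shCHD7_2 samples (log2 fold change 1.2043, adjusted p = 0.0664). The 6 leukocyte markers measured, 5 of them below a mean FPKM of 1, summed to between 495.32 and 529.92 FPKM in the vector samples and between 602.59 and 611.93 in the shCHD7_2 samples, nearly all of it CD68. Of the 4 fibroblast markers measured only ACTA2 passed the filter on low counts, and it rose from 34 and 33 counts to 55 and 66 (log2 fold change 0.82, adjusted p = 0.0258). The part of these markers in the results that follow was not tested.

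κB sites were looked for in the promoters of the members, because the autoregulatory members of the pathway are classical targets of NF-κB itself. RefSeq promoter windows on GRCh38.p14, running from 250 bases before to 50 bases after an annotated transcription start, were searched on both strands for the NF-κB κB consensus, a motif 10 bases long, and 11.3% of 34943 such windows in the genome held at least 1 match. Windows of 7 of the 10 members were examined, and 7 of their 11 windows held a match, which covered 6 of the 7 genes. No window was available for RELB and NFKBIE. IKBKB was left out of the member windows, so these counts say nothing about its promoter. The windows of BIRC3 (chr11:102317234-102317533, plus strand), TNFAIP3 (chr6:137867009-137867308, plus strand) and NFKBIA (chr14:35404700-35404999, minus strand) are printed 5′ to 3′, because the results turn on these feedback genes. Capitals mark the matches.
BIRC3: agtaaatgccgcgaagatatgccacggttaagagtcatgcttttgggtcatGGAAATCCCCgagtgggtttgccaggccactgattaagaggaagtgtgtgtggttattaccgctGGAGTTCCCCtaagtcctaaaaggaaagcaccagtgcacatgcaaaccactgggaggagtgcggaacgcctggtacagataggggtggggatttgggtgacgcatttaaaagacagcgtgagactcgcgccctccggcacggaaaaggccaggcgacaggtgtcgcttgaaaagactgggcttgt
TNFAIP3: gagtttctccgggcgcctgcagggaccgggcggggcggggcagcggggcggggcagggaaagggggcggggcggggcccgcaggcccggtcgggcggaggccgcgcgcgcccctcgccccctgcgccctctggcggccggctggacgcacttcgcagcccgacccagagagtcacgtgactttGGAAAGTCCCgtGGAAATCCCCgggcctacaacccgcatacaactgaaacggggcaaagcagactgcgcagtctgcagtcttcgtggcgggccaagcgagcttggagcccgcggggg
NFKBIA: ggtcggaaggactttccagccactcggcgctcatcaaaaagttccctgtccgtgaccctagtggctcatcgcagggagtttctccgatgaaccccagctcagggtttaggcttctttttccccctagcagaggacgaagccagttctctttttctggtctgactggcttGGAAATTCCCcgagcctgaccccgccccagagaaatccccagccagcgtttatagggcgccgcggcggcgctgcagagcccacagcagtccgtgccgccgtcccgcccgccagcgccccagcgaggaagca
The BIRC3 and TNFAIP3 windows each held 2 matches, a number reached by 2.03% of all windows, and the NFKBIA window held 1. The first bases of the BIRC3 matches lay 199 and 135 bases before the start, and those of the TNFAIP3 matches 67 and 55 bases before it. The NFKBIA match began 81 bases before the start. NFKB1 had a match 49 bases before its start. NFKB2 had up to 3 matches in a window, of which a pair, 107 and 106 bases before the start, overlapped. REL also had a pair of overlapping matches. Neither RELA window held one. A match describes the letters of the window and is not evidence that a factor bound there.

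The 10 members spanned a wide range of transcript levels, compared here as deposited FPKM, which is scaled for gene length. The DNA-binding subunit RELA, the main activating subunit of the classical pathway, was the most abundant at a mean of 51.6 FPKM over the 4 samples, above 89.5% of the genes in the matrices. NFKBIA, which encodes the IκBα inhibitor, followed at 25.5 and NFKB2 at 24.7 FPKM, and the ranges of these neighbours overlapped. IKBKB (19.2), NFKB1 (15.5), NFKBIE (6.62), RELB (4.6), BIRC3 (3.4), REL (2.41) and TNFAIP3 (1.47 FPKM) came next in that order. Each of them had a range over the 4 samples that did not overlap that of the gene ranked after it. TNFAIP3, the least abundant member, still lay above 30.7% of the genes in the matrices. The members whose knockdown samples lay above both controls, BIRC3 and TNFAIP3, were thus in the lower part of this order.

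**Figure D1:**
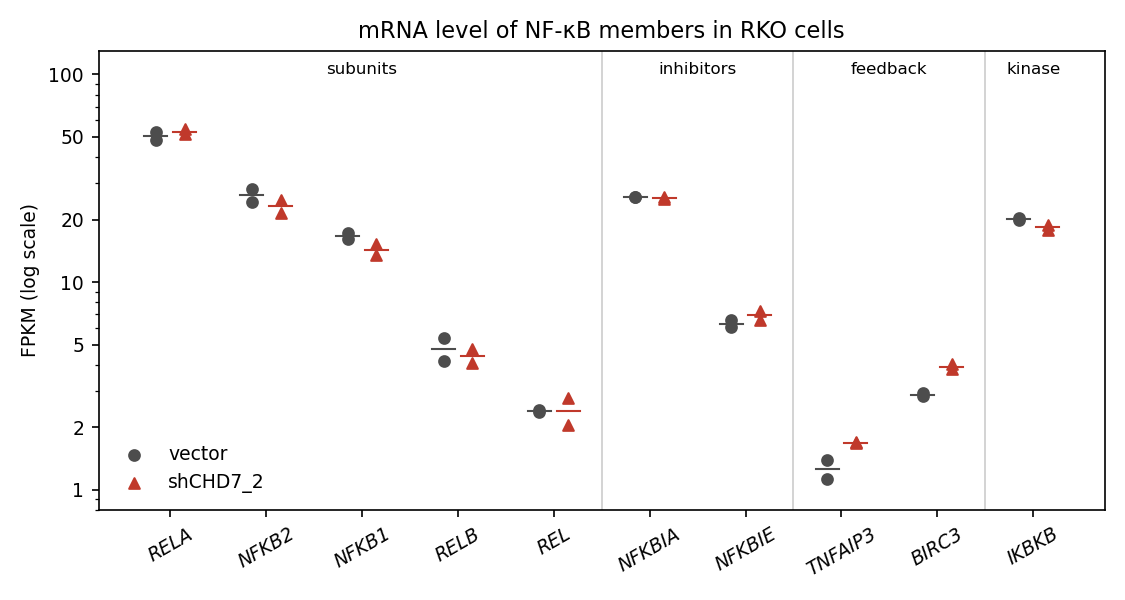
Transcript level of each NF-κB member in FPKM on a log axis, with 1 point for each sample (grey circles, vector; red triangles, shCHD7_2) and a horizontal line at each group's mean. BIRC3 and TNFAIP3 show both shCHD7_2 samples above both vector samples, NFKB1 and IKBKB show the opposite order, and RELA stays between 48.06 and 54.39 FPKM.

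Of the 10 members, 1 changed at an adjusted p under 0.05 in edgeR's quasi-likelihood test, and that was BIRC3, which rose. Of all 11955 genes tested, 11.5% were called by this threshold in either direction and 4.94% were called higher, so the members' count was near the background. None of the members was called when a change of 1.5 fold was also required, against 2.88% of all genes tested, and DESeq2 and limma called none by that rule either. Without adjustment 4 of the 10 had a p under 0.05 in the edgeR test, as did 25.4% of all genes tested. BIRC3 and TNFAIP3 had both shCHD7_2 samples above both vector samples in CPM, an order found in 26.4% of all genes tested. NFKB1, NFKB2, NFKBIA and IKBKB had the opposite order, found in 27.3% of all genes tested, and the groups overlapped for RELA, RELB, REL and NFKBIE. The median log2 fold change of the members was -0.04, beside 6e-04 over all genes tested. In bulk RNA, fewer cells of a type and less RNA per cell cannot be told apart.

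**Figure D2:**
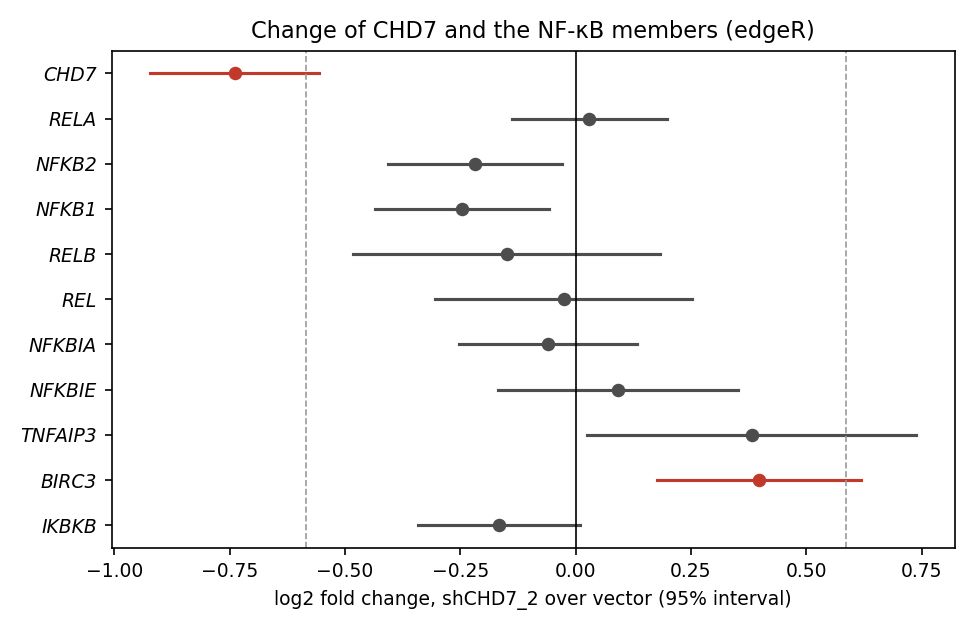
Log2 fold change, shCHD7_2 over vector, of CHD7 and the 10 members, with 95% intervals from edgeR (2 samples a group); red marks genes with an adjusted p under 0.05 and dashed lines mark a change of 1.5 fold. CHD7 lies at -0.74 and BIRC3 at 0.40, and of the other members NFKB1, NFKB2 and TNFAIP3 have intervals that do not include 0.

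The activating subunits RELA, RELB and REL, which carry the transactivation domains, overlapped between the groups. The CPM of RELA was 128 and 118 in the vector samples and 122 and 129 in the shCHD7_2 samples. Its log2 fold change was 0.03 (SE 0.0811, 95% interval -0.14 to 0.20, adjusted p = 0.858). RELB, the activating subunit of the alternative pathway, had a CPM of 11.5 and 8.87 in the vector samples and 8.42 and 9.96 in the shCHD7_2 samples. The 2 vector samples lay further apart than the group means, and the log2 fold change was -0.15 (95% interval -0.48 to 0.18, adjusted p = 0.611). REL, which encodes c-Rel, a subunit best known from lymphocytes, had a CPM of 18.0 and 17.9 in the vector samples and 20.4 and 14.9 in the shCHD7_2 samples. Its 2 knockdown samples fell on opposite sides of the controls, and the log2 fold change was -0.03 (95% interval -0.31 to 0.25, adjusted p = 0.929), a sign that turned when libraries were scaled by their totals (0.02).

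NFKB1 and NFKB2 encode precursor proteins that are processed into the DNA-binding partners of the activating subunits and that, before processing, act as inhibitors. NFKB1 had a CPM of 59.2 and 63.2 in the vector samples and 54.8 and 48.4 in the shCHD7_2 samples. Both knockdown samples were below both controls, but the log2 fold change of -0.25 (SE 0.0909, 95% interval -0.43 to -0.06) did not pass the threshold (adjusted p = 0.0854). NFKB2 had a CPM of 82.8 and 74.4 in the vector samples and 63.3 and 71.8 in the shCHD7_2 samples. The groups were separated by a narrow margin in CPM, and overlapped in FPKM, where the values were 28.01 and 24.28 against 21.55 and 24.82. The log2 fold change of NFKB2 was -0.22 (SE 0.0908, 95% interval -0.41 to -0.03, adjusted p = 0.129). NFKB1 without the first shCHD7_2 sample (-0.34, adjusted p = 0.0195) and NFKB2 without the second (-0.31, adjusted p = 0.0361) passed the threshold.

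The summed FPKM of the 5 subunits was 104.43 and 96.12 in the vector samples and 95.14 and 99.46 in the shCHD7_2 samples, and the groups overlapped. Within this sum the share of RELA was 50.29% and 50% in the vector samples and 54.15% and 54.69% in the shCHD7_2 samples. The groups did not overlap for the RELA share, although RELA itself did not differ beyond its spread. The share of NFKB2 was 26.82% and 25.26% against 22.65% and 24.95%, and that of NFKB1 was 15.44% and 17.87% against 16.01% and 13.51%. These shares are a description of mRNA, and with 2 samples against 2 an exact two-sided permutation test cannot give a p below 0.33.

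**Figure D3:**
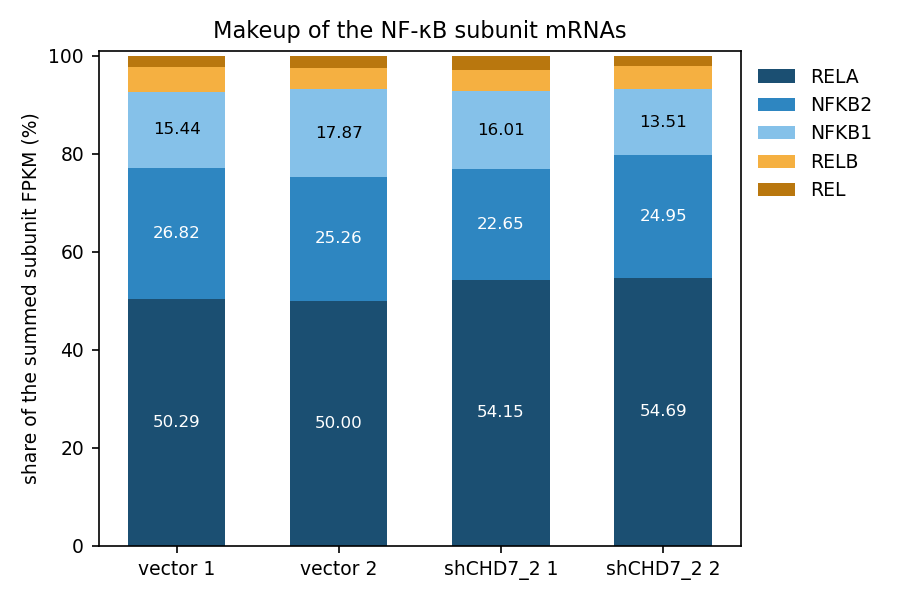
Share of each subunit in the summed FPKM of the 5 NF-κB subunits, as a percentage, in 1 stacked bar for each sample. RELA takes 50.29% and 50% in the vector samples and 54.15% and 54.69% in the shCHD7_2 samples, while RELB and REL together form the thin top of each bar.

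The inhibitor NFKBIA, whose product IκBα is resynthesised in response to NF-κB and returns the dimers to the cytoplasm, was almost level across the samples. Its CPM was 36.7 and 36.6 in the vector samples and 34.5 and 35.8 in the shCHD7_2 samples. The groups did not overlap in CPM but did in FPKM, with 25.74 and 25.59 against 25.03 and 25.7. The log2 fold change was only -0.06 (SE 0.0931, 95% interval -0.25 to 0.13, adjusted p = 0.744). NFKBIE, which encodes the related inhibitor IκBε, had a CPM of 14.9 and 16.2 in the vector samples and 15.6 and 17.5 in the shCHD7_2 samples. The groups overlapped, with a log2 fold change of 0.09 (95% interval -0.17 to 0.35, adjusted p = 0.7). Together the 2 inhibitors had 31.8 and 32.16 FPKM in the vector samples and 31.6 and 32.99 in the shCHD7_2 samples. The ratio of this sum to that of the subunits was 0.305 and 0.335 in the vector samples and 0.332 in both shCHD7_2 samples, so the knockdown samples lay between the controls.

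BIRC3 encodes a ubiquitin ligase of the inhibitor of apoptosis family that acts in TNF receptor signalling and holds the alternative pathway in check, and it is annotated at chr11:102317450-102339403 on the plus strand of GRCh38 in GENCODE 29. It had 289 and 307 counts in the vector samples and 404 and 398 counts in the shCHD7_2 samples. In CPM this was 18.6 and 19.4 against 25.2 and 24.9, so that replicates agreed closely and the groups were well separated. BIRC3 rose by 0.40 on the log2 scale (SE 0.107, 95% interval 0.18 to 0.62, adjusted p = 0.0164), a fold change of 1.32 (95% interval 1.13 to 1.54). The call ended when the first vector sample (0.36, adjusted p = 0.128) or the second (0.43, adjusted p = 0.0785) was left out, and with DESeq2 (0.40, adjusted p = 0.11). BIRC2, its close paralog with an overlapping function, had 1360 and 1488 counts in the vector samples and 1344 and 1272 counts in the shCHD7_2 samples. The log2 fold change of BIRC2 was -0.15 (95% interval -0.33 to 0.02, adjusted p = 0.265).

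TNFAIP3, a ubiquitin-editing enzyme that terminates NF-κB signalling and is among its best-known targets, lies at chr6:137867188-137883312 on the plus strand. It had 81 and 100 counts in the vector samples and 120 and 121 counts in the shCHD7_2 samples. Both knockdown samples were above both controls, as for BIRC3, and the log2 fold change of 0.38 was of a similar size. With these lower counts the SE was 0.172 and the 95% interval ran from 0.03 to 0.74, and TNFAIP3 did not pass the threshold (adjusted p = 0.163). The other members with a κB match had negative log2 fold changes, namely NFKBIA (-0.06), NFKB1 (-0.25), NFKB2 (-0.22) and REL (-0.03), and none of them was called. The part of the κB matches in these changes was not tested.

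IKBKB encodes the catalytic kinase of the IκB kinase complex that phosphorylates the inhibitors in the classical pathway. Its CPM was 76.8 and 79.0 in the vector samples and 67.2 and 71.6 in the shCHD7_2 samples. The knockdown samples lay below the controls, with a log2 fold change of -0.17 (SE 0.0847, 95% interval -0.34 to 0.01, adjusted p = 0.222). The other parts of the complex, which were not among the members, also had negative values that did not pass the test. These were -0.12 for the second kinase CHUK (95% interval -0.30 to 0.07, adjusted p = 0.455) and -0.20 for the scaffold IKBKG (95% interval -0.45 to 0.06, adjusted p = 0.332). CHUK and IKBKG were singled out after their values were seen.

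The wider pathway was described through 4 gene lists, of which 87 genes could be tested. Of these, 13 were called at an adjusted p under 0.05, 9 higher and 4 lower. Among all genes tested, 11.5% were called in either direction and 4.94% were called higher. Of 28 receptors and ligands, 21 were in the matrices and 13 were tested, 3 of which rose and 10 did not pass. TLR3, an endosomal receptor for double-stranded RNA, rose from 51 and 67 counts to 102 and 99 (log2 fold change 0.74, SE 0.194, adjusted p = 0.0141). TLR1, a cell-surface receptor for bacterial lipopeptides, rose from 40 and 46 counts to 82 and 72 (0.81, SE 0.214, adjusted p = 0.0145). Only 1 of its 4 deposited counts was a whole number, which can arise when reads are divided between similar genes. IL1R1, the interleukin-1 receptor, rose from 3 and 6 counts to 13 and 18 (1.73, SE 0.52, adjusted p = 0.0328), at counts too low for a precise fold. The TLR3, TLR1 and IL1R1 calls all ended without the first vector sample, with adjusted p values of 0.174, 0.107 and 0.248, and with DESeq2 (0.153, 0.176 and 0.298). The IL1R1 call also ended without the second vector sample (0.053) or the second shCHD7_2 sample (0.224), and the TLR1 call without the first shCHD7_2 sample (0.068). The median log2 fold change of the 13 genes was 0.07.

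Of 36 adaptors and kinases, 35 were tested, 1 fell and 34 did not pass, with a median log2 fold change of 0.0071. The share called in either direction among all genes tested was 11.5%. TANK, an adaptor that binds TRAF proteins and the kinase TBK1, fell from 567 and 592 counts to 376 and 380. Its log2 fold change was -0.65 (SE 0.0971, adjusted p = 8.28e-05), and this was the only gene of the 4 lists that fell by more than 1.5 fold. The most abundant genes of this list did not pass, namely UBE2V1 (log2 fold change 0.12, adjusted p = 0.306), a ubiquitin-conjugating cofactor that has a read-through transcript, and the kinase IRAK1 (-0.04, adjusted p = 0.787), whose sign turned under scaling by library totals.

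Of 18 other inhibitors, all were tested and 1 rose, beside 4.94% called higher among all genes tested. The median log2 fold change was 0.04. NFKBIZ, a nuclear IκB protein that modulates transcription of a subset of targets, had 836 and 869 counts in the vector samples and 1103 and 1029 counts in the shCHD7_2 samples. Its log2 fold change was 0.29 (SE 0.0865, adjusted p = 0.0301). Of the 14 alternative analyses 7 ended this call, and 1 of those that kept it was chosen after seeing the data. The abundant ubiquitin-binding inhibitors TAX1BP1 (0.09, adjusted p = 0.534) and TNIP1 (-0.05, adjusted p = 0.747) did not pass.

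The list of NF-κB target genes held the most calls. Like the other lists it was chosen with earlier results of these data known, so its count is not independent of them. Of 32 genes, 25 were in the matrices and 21 were tested, of which 5 rose, 3 fell and 13 did not pass. The median log2 fold change was 0.10. Among all genes tested, 11.5% were called in either direction, 4.94% were called higher, and the median was 6e-04. BCL2L1, an anti-apoptotic BCL2 protein, rose from 5901 and 5709 counts to 8480 and 8993 (log2 fold change 0.56, SE 0.0723, adjusted p = 1.3e-05). The chemokine CXCL8 rose from 7 and 5 counts to 44 and 24 (2.45, SE 0.431, adjusted p = 0.000507), and the cytokine subunit EBI3 from 10 and 4 counts to 41 and 27 (2.23, SE 0.416, adjusted p = 0.000885). Both were near the lower limit of detection in the controls, so their folds are imprecise. BCL2A1, another anti-apoptotic BCL2 protein, moved the other way and fell from 1915 and 1995 counts to 1453 and 1498 (-0.44, SE 0.08, adjusted p = 0.000745). PLAU, the urokinase plasminogen activator, fell from 453 and 441 counts to 327 and 326 (-0.48, SE 0.103, adjusted p = 0.00289). Without a filter on low counts the calls of CXCL8 (adjusted p = 0.0811), EBI3 (0.0921) and PLAU (0.0593) ended. The other calls, named after their values were seen, were the proteoglycan SDC4 (0.33) and the cytokine LIF (0.29), which rose, and the stress gene GADD45B (-0.47), which fell. Called target genes thus moved in both directions, and they included abundant and barely detected transcripts alike. The cytokine and chemokine targets CXCL1, CCL20 and CSF2 had at most 8 counts in any library and were not tested.

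**Figure D4:**
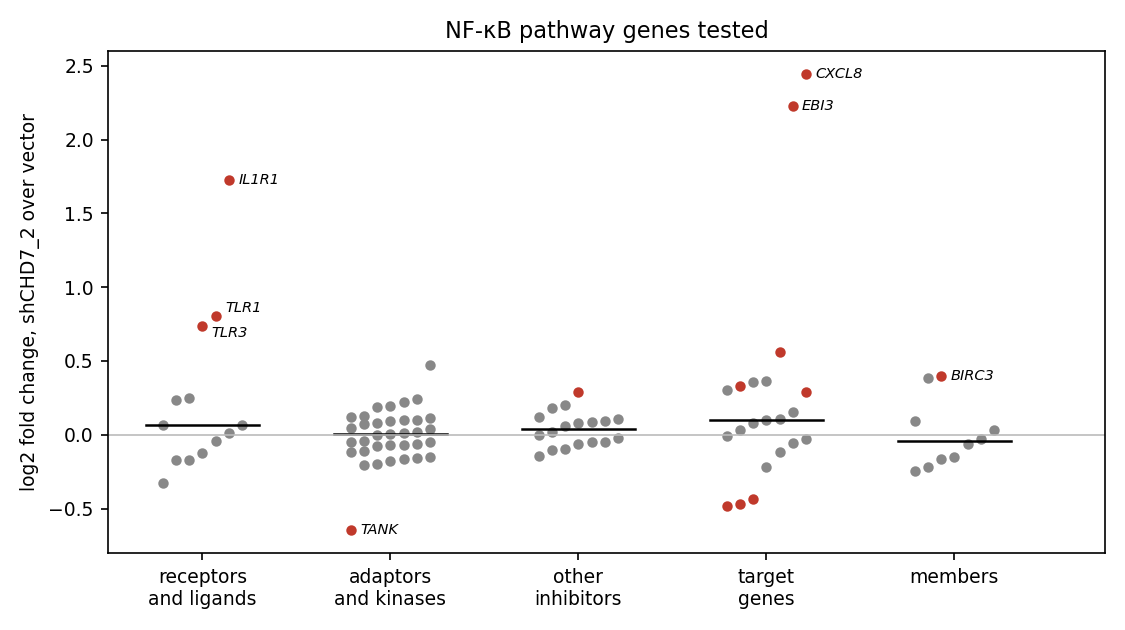
Log2 fold change, shCHD7_2 over vector, of each tested gene in the 4 NF-κB pathway lists and of the 10 members, with 1 point a gene; red marks an adjusted p under 0.05 and black lines mark medians. The medians lie between -0.04 and 0.10, and the largest positive values belong to CXCL8 (2.45), EBI3 (2.23) and IL1R1 (1.73), which have low counts.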

How the data were processed

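The sample labels gave the group and replicate number of each of the 4 samples. For 15357 genes the authors deposited 2 matrices, one of expected counts, which are estimates and were not normalized, and one of FPKM values, scaled for gene length and depth. The submitters' processing notes name Bowtie2, RSEM, DESeq2 and hg38, without versions or roles, and the annotation is not given in the sources used here. RSEM divides reads between similar genes, but all 40 count values of the members were whole numbers. No column was left without a sample.

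Counts were rounded to whole numbers, filtered with filterByExpr, scaled by TMM and tested with the quasi-likelihood test of edgeR 4.0.16 in R 4.3.3, with Benjamini-Hochberg adjustment over all 11955 genes tested. Genes were called at an adjusted p under 0.05, alone or together with a fold change of 1.5 or more. The F statistic of that test gave the SEs and 95% intervals. The scripts were tested on simulated data. Library totals differed little, and at this depth TNFAIP3 had between 81 and 121 counts per library, which limits its precision. The intervals of fold changes cover only the spread between these samples.

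The members and gene lists were chosen with earlier results of these data known. All 10 members and CHD7 were named, and in each list up to 5 called genes with the smallest p, or, where fewer than 2 were called, also the 2 with the highest FPKM. Alternatives were DESeq2 1.42.0, size factors of DESeq2 or library totals as scaling, other low-count filters, limma 3.58.1 on log2(FPKM + 1) or log2(FPKM + 0.1), a replicate block, and leaving out each sample in turn, where the lone sample of a group was assumed to vary like the other group. A crossed pairing as a block was added after seeing the data. Gene positions are from GENCODE 29 and promoter sequences from RefSeq, both on GRCh38. Replicates of a group differed by more than sampling noise (chi-square per gene of 3.94 for vector and 6.05 for shCHD7_2) and were counted as separate samples.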

Additional observations from a re-analysis of the deposited data

How the results depend on the processing

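BIRC3 had a positive log2 fold change under all 14 alternatives (0.35 to 0.44), but its call was lost under 8 of them. Of the 14, 1 was the crossed pairing described below, which was chosen after seeing the data and kept the call. Under these 8 it was 0.40 (adjusted p = 0.11) with DESeq2, 0.40 (0.0656) with a replicate block and 0.39 (0.0892) with no filter on low counts. In limma it was 0.35 (0.0557) on log2(FPKM + 1), 0.44 (0.061) on log2(FPKM + 0.1) and 0.35 (0.147) with no filter. It was 0.36 without the first vector sample and 0.43 without the second. The number of members called was 0 with DESeq2, the replicate block, no filter and all 3 limma settings, and 0 to 2 with 1 sample left out. No member was called with 1.5 fold under any alternative. Samples with the same replicate number did not deviate alike from their group means (correlation -0.252 across the genes tested). This single value cannot settle how the samples were paired. The crossed pairing as a block was chosen after seeing the data. It called 4 members (BIRC3 higher, NFKB1, NFKB2 and IKBKB lower), 23 pathway genes and 3751 genes in all.

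Of all genes tested, 1373 were called, 591 higher and 782 lower, against 878 higher and 608 lower when libraries were scaled by their totals. The count was 800 with DESeq2, 755 with the replicate block, 197 with no filter, 24 in limma with no filter, and 610 to 1702 with 1 sample left out (818 without the first vector sample and 610 without the second). With 1.5 fold it was 344, against 221 with DESeq2, 141 with no filter, 172 in limma on log2(FPKM + 1) and 23 in limma with no filter. Of the pathway lists, 13 genes were called, against 8 with DESeq2, 3 with no filter, 0 in limma with no filter, and 6 to 11 with 1 sample left out (6 without the first vector sample and 8 without the second). CHD7 was -0.51 (adjusted p = 0.104) in limma with no filter and kept its call elsewhere. Among the members, CHD7 and the pathway genes refitted under each alternative, the sign turned only for RELA, RELB, REL and IRAK1, which were not called. With 1 sample left out, RELA ran from -0.0317 to 0.0919, RELB from -0.33 to 0.05, REL from -0.28 to 0.18 and IRAK1 from -0.11 to 0.0285. REL was 0.0181 and IRAK1 0.0036 under library totals, and IRAK1 was 0.0015, 0.0016 and 0.0015 in the 3 limma settings. The causes were not tested. With 2 samples a group, the 95% intervals of the uncalled members still allow changes of the size seen for BIRC3 in some of them, and TNFAIP3 is limited by its counts.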

Other observations

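The surroundings of BIRC3 on chromosome 11 were examined after the values were seen. Of 19 protein-coding genes with a start within 1000 kb of that of BIRC3, BIRC3 included, 14 were in the matrices and 10 were tested. BIRC3 aside, 3 of the tested genes were called higher and 2 lower. Among all genes tested, 11.5% were called in either direction and 4.94% were called higher. The matrix metalloproteinase genes MMP10, MMP1 and MMP3, whose products cleave extracellular matrix proteins, start 463.2, 480.7 and 526.4 kb downstream and all rose. MMP1 had 34 and 42 counts in the vector samples and 512 and 480 counts in the shCHD7_2 samples (log2 fold change 3.67, SE 0.156, adjusted p = 1.62e-13). MMP10 had 1 and 6 counts against 107 and 88 (adjusted p = 1.01e-08), and MMP3 had 1 and 3 counts against 36 and 17 (adjusted p = 0.000275). MMP10 and MMP3 were near the lower limit of detection in the controls, so the size of their rise is imprecise. Apart from BIRC3, the genes of this window were not refitted under the alternatives. YAP1, the Hippo pathway coactivator, fell by 0.30 on the log2 scale (adjusted p = 0.0171), and DYNC2H1, a motor protein of cilia, fell by 0.32 (adjusted p = 0.0274). BIRC2 and TMEM123, the measured genes nearest to BIRC3, had log2 fold changes of -0.15 (adjusted p = 0.265) and -0.18 (adjusted p = 0.128) that did not pass. Around TNFAIP3 on chromosome 6, 12 of 15 protein-coding genes in a window of the same size were in the matrices and 9 were tested. Among them IFNGR1, a receptor for interferon gamma, had a log2 fold change of -0.01 (adjusted p = 0.967), and the p53 target PERP had the lowest adjusted p at 0.106 (-0.20), neither passing the threshold.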
